A study of Mus musculus with 12 samples.

Results

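The genes described here are the members of the mitogen-activated protein (MAP) kinase cascade and the dual-specificity phosphatases (DUSPs), measured in CD8 T cells of wild-type (WT) and cTKO mice. They were taken by symbol: every gene named Mapk, Map2k, Map3k, Map4k, Mapkapk or Dusp followed by a number, which gave 70 of the 24421 genes in the table. The series sequenced polyadenylated RNA of CD8 T cells, CD4 T cells and B cells sorted from spleens of C57BL/6 mice, 500000 cells per sample, in 12 samples and 6 groups of 2. The groups used here are the CD8 T cells of 2 WT mice and of 2 cTKO mice, each with 1 female and 1 male. The labels do not spell out cTKO. It is taken here, from background knowledge of the study, as a conditional deletion of 3 linker histone genes, Hist1h1c, Hist1h1d and Hist1h1e, and the direction of every fold change rests on that reading. The promoter or recombinase that drives the deletion, the ages and any treatment are not stated in the labels. The values are the authors' own comparison of the genotypes, and the reads of each gene in each library were worked back from it. Libraries are called the larger and the smaller one of each genotype, and reads are always given in the order larger WT, smaller WT, larger cTKO, smaller cTKO.

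A MAP kinase cascade is a relay of protein kinases. MAP4Ks and small GTPases switch on MAP3Ks, these phosphorylate MAP2Ks, and each MAP2K phosphorylates a threonine and a tyrosine in the activation loop of its MAP kinase: ERK, JNK or p38. The MAP kinases then act on transcription factors and on further kinases such as the MAPKAPKs, and many DUSPs, the MAP kinase phosphatases (MKPs), remove both phosphates and so switch the kinases off. In T cells the antigen receptor drives all 3 branches, and several MKP genes are themselves early targets of the signal, which makes them a negative feedback.

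Of the 70 genes, 3 had no read in any library (Dusp15, Dusp21 and Dusp26), and 11 had reads but a mean of at most 1.96 normalized reads and were given no adjusted p by the authors' deposited table. The remaining 56 were tested, and 8 of them (14.3%) passed an adjusted p of 0.05 in the authors' deposited table, against 13.4% of all 12972 tested genes. The 5 that were higher in cTKO (8.93%) stood against 9.77% of all tested genes, and the 3 that were lower (5.36%) against 3.61%. The shares are near those of the whole table, so the number of called genes is not a result about the cascade. In the authors' deposited table the median log2 fold change of the tested members was 0.11, against 0.04 over all tested genes, and 43 of the 56 differed by less than 2-fold. A p38 isoform, an inducible nuclear phosphatase and a small atypical phosphatase fell, while an ERK phosphatase, a JNK and p38 phosphatase, 1 MAP3K and 2 kinases downstream of the MAP kinases rose.

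The promoters of the 3 genes that fell and of Dusp5, which had the smallest p among those that rose, are shown because Dusp1 and Dusp5 are known as early targets of signalling through their promoters. The sequences are RefSeq's on GRCm38.p6, on the strand of the gene, from within the 250 bases before the start and without annotated UTR or coding bases. Dusp1 (chr17:26508520-26508722, minus strand), Mapk11 (chr15:89149629-89149856, minus strand), Dusp23 (chr1:172632975-172633224, minus strand) and Dusp5 (chr19:53528895-53529108, plus strand) read as follows, with capitals for a cAMP response element (CRE, TGACGTCA), an E-box (CACGTG) and CArG boxes, the motif of serum response factor.
Dusp1: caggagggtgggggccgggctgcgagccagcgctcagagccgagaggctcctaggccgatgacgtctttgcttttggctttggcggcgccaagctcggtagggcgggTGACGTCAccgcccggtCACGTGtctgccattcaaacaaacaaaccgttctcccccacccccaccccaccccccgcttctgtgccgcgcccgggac
Mapk11: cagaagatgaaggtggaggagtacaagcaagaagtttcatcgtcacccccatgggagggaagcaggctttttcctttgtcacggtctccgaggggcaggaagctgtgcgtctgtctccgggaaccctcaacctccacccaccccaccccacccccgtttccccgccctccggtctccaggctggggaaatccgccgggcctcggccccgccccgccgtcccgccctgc
Dusp23: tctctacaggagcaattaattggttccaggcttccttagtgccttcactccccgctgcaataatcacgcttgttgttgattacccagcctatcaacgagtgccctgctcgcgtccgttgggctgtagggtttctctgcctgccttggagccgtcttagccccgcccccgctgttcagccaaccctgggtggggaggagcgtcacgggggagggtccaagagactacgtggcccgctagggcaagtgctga
Dusp5: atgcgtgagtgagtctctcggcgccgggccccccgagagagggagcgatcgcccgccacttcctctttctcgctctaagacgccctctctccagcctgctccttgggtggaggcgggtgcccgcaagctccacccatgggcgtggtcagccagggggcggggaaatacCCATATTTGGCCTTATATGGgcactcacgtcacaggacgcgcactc
Dusp1 held 1 full CRE, whose first base lies 143 bases before the start, and 1 E-box at 126. Dusp5 held 2 CArG boxes side by side, at 82 and 72 bases before the start. Counted over the whole 250 bases and both strands, the CRE was in 1.55% of 32851 promoters and in 3 of 71 promoters of the members, the E-box in 6.02% and in 6 of 71, and a CArG box in 1.47% and in 1 of 71. The promoters of Mapk11 and Dusp23 held none of these, nor an AP-1 site (TGANTCA, in 6.75% of all promoters) or an ETS site (CCGGAAGT, in 2.88%). The promoters of the members had a median GC content of 62.8% and a median of 16 CpG (C followed by G). Over all promoters these were 52.4% and 6. The CRE and the E-box each hold a CpG, so their shares are no measure of enrichment. Matches are descriptions of the letters, and binding was not measured.

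Among the terminal kinases, the p38 gene Mapk11 (p38-beta, Entrez 19094, chromosome 15, 89142482 to 89149606) had the smallest p of all members. The WT libraries held 698 and 370 of its reads and the cTKO libraries 46 and 40. Both WT libraries lay far above both cTKO libraries, with means of 501.0 and 43.9 normalized reads, which are reads divided by the library's size factor. In the authors' deposited table it was 11.5-fold lower in cTKO (log2 ratio -3.52 ± 0.41 SE, adjusted p 3.40e-15). Per kilobase of exon, Mapk11 made up 19.5% and 15.2% of the 4 p38 genes in WT and 1.63% and 2.19% in cTKO. Mapk14, which codes for p38-alpha and is the main p38 of most tissues, took the rest, at 79.7% and 84.3% in WT and 98.0% and 97.4% in cTKO. The level of Mapk14 itself was close in all libraries, with 4331, 3117, 4200 and 2703 reads, and in the authors' deposited table its log2 fold change was -0.07 (95% interval -0.63 to 0.49, adjusted p 0.911). Mapk12 (p38-gamma), which lies 1783 bases from Mapk11, had 38, 15, 14 and 9 reads, and its log2 fold change of -1.10 (SE 0.99) did not pass in the authors' deposited table (adjusted p 0.512). Mapk13 (p38-delta) had 1 read in all.

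Of the ERK and JNK genes described here, none passed. Mapk3 (ERK1) had 477, 273, 762 and 353 reads, with both cTKO libraries higher after division by size factors, and in the authors' deposited table a log2 ratio of 0.60 ± 0.36 SE (adjusted p 0.293). Mapk9 (JNK2), the main JNK gene here, had 1996, 1248, 2093 and 1380 reads and gave 92.6% to 95.8% of the JNK reads per kilobase, and the authors' deposited table put it at a log2 ratio of 0.16 ± 0.30 SE (adjusted p 0.78). Neither of the 2 tested JNK-type genes passed, at an adjusted p of 0.05 or at an unadjusted p of 0.05, and 0 passed in limma. Mapk4, Mapk10 and Mapk15 had at most 4 reads in any library.

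**Figure D1:**
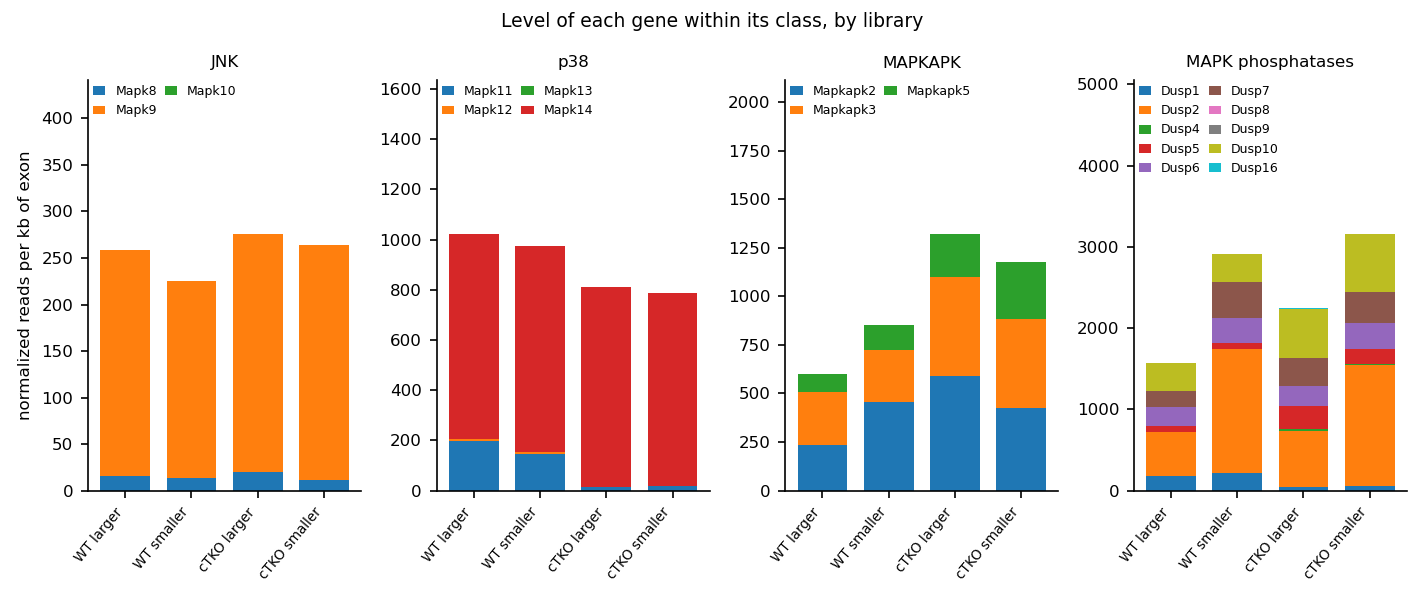
Normalized reads per kilobase of exon (vertical axis) of the JNK, p38, MAPKAPK and MAP kinase phosphatase genes, stacked by gene, in each of the 4 libraries (bars). Mapk11 is a visible part of the p38 bar in both WT libraries and a thin line in both cTKO libraries, while all 3 MAPKAPK genes together are higher in both cTKO libraries.

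Above the MAP kinases 1 of 26 tested kinases passed, against 13.4% of all tested genes. Counts by class of member rest on few genes and are not read as results about a class. Map3k8 (Tpl2, the MAP3K that leads inflammatory signals to ERK) had 745, 289, 1551 and 849 reads. Both cTKO libraries were above both WT libraries, and the WT libraries differed from each other, at 613.5 and 333.7 normalized reads. In the authors' deposited table Map3k8 was 2.47-fold higher (log2 ratio 1.30 ± 0.37 SE, adjusted p 0.0063). Of the other 13 tested MAP3Ks none passed, at an unadjusted p of 0.05 or in limma either. Map3k3, the MAP3K with the highest mean, had 3057, 2785, 3910 and 1667 reads and in the authors' deposited table a log2 ratio of -0.11 ± 0.33 SE (adjusted p 0.87). Map3k1 was uneven within WT, at 2974 and 705 reads, against 1545 and 668 in cTKO, and its log2 ratio of -0.63 in the authors' deposited table became 0.34 in limma without the larger WT library.

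The MAP2Ks stayed within a narrow band. All 7 were tested, and log2 ratios of the authors' deposited table lay between -0.18 (Map2k1, which codes for MEK1) and 0.16 (Map2k6, an activator of p38). None of the 7 passed at an unadjusted p of 0.05 or in limma. Map2k1, the highest of them, had 2172, 1593, 1814 and 1375 reads, and in the authors' deposited table its adjusted p was 0.755. None of the 5 MAP4Ks passed either, again with 0 at an unadjusted p of 0.05 and 0 in limma. Map4k2 had the highest mean, with 2116, 1820, 3277 and 1459 reads that overlapped between genotypes, and an adjusted p of 0.693 in the authors' deposited table. Map4k1 (HPK1, a brake on antigen receptor signals) had 3036, 2025, 1856 and 1382 reads, lower in both cTKO libraries, and in the authors' deposited table its log2 fold change was -0.57 (SE 0.30, adjusted p 0.197).

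Downstream, 2 of the 3 MAPKAPK genes were called higher in cTKO, against 9.77% of all tested genes. Mapkapk5 (PRAK, Entrez 17165, chromosome 5, 121525051 to 121545892) had 358, 363, 852 and 750 reads. In the authors' deposited table it was 2.3-fold higher (log2 ratio 1.20 ± 0.36 SE, adjusted p 0.00937). On the same strand, the annotation's gene Adam1a shares 1805 exonic bases with it (56.5% of its exonic bases), so reads of the 2 genes may not be separable. Adam1a itself had 4, 3, 46 and 26 reads. Mapkapk3 (a p38 substrate kinase, Entrez 102626, chromosome 9, 107254927 to 107289877) had 1843, 1279, 3426 and 2046 reads. It was 1.8-fold higher in the authors' deposited table (log2 ratio 0.85 ± 0.29 SE, adjusted p 0.0347). Mapkapk2, the best known p38 substrate kinase, had 872, 1203, 2158 and 1040 reads, which overlapped between genotypes, and an adjusted p of 0.363 in the authors' deposited table. In limma on the recovered reads Mapkapk3 did not pass (adjusted p 0.104). Mapkapk5 had an adjusted p of 0.0569 over all genes with reads, 0.0459 over genes with a mean of at least 10 and 0.0111 with sex as a term.

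**Figure D2:**
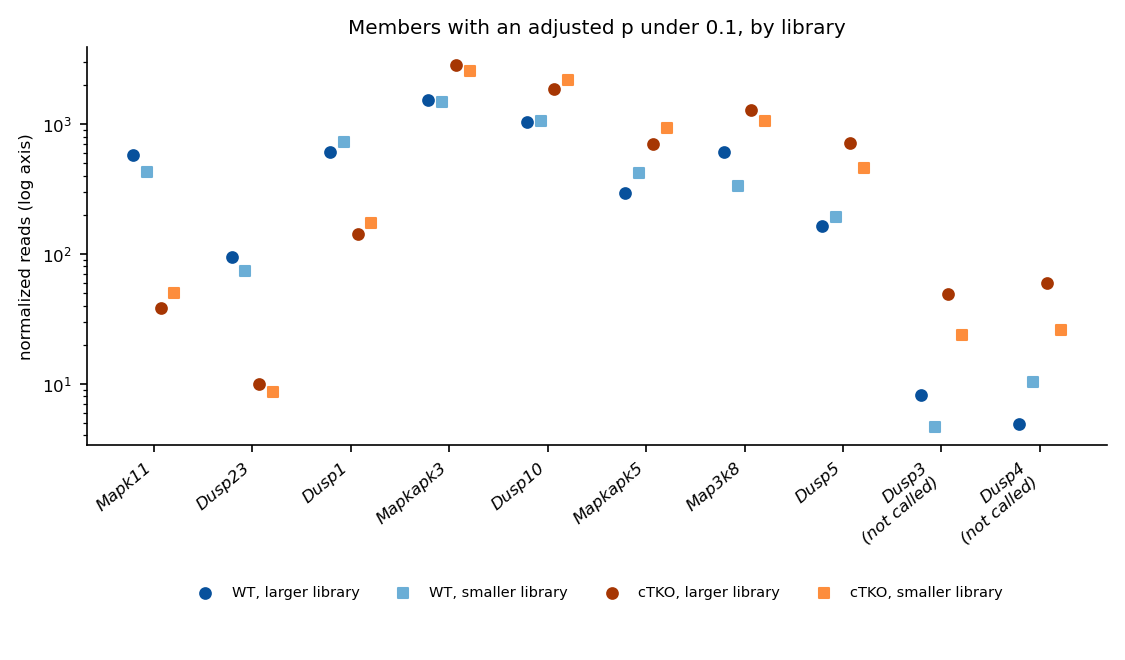
Normalized reads (vertical log axis) of the 8 called members and of Dusp3 and Dusp4, which did not pass, in each library (1 point per library). For all 10 genes both cTKO libraries lie on the same side of both WT libraries. The genes were picked by an adjusted p under 0.1 from these same libraries, so this is no separate check. Among all tested genes with recovered reads, the genotypes did not overlap for 59.3%.

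Of the 4 inducible nuclear MKPs, 1 fell, 1 rose and 2 did not pass. Of all tested genes 3.61% were called lower and 9.77% higher. Dusp1 (MKP-1, which acts on p38, JNK and ERK, Entrez 19252, chromosome 17, 26505591 to 26508472) dropped from 734 and 631 reads to 172 and 139. The replicates of each genotype were close, and in the authors' deposited table Dusp1 was 4.24-fold lower (log2 ratio -2.08 ± 0.36 SE, adjusted p 2.66e-07). Dusp5 (a nuclear phosphatase of ERK, Entrez 240672, chromosome 19, 53529145 to 53541809) went from 199 and 165 reads to 864 and 366. It was 3.31-fold higher in the authors' deposited table (log2 ratio 1.73 ± 0.38 SE, adjusted p 1.62e-04). An antisense gene of the annotation, AC137853.2, covers 547 of its exonic bases (22.1%), and the labels do not say whether reads were counted by strand. Dusp4 (MKP-2) had 6, 9, 72 and 21 reads and lay just outside the threshold in the authors' deposited table (log2 ratio 2.51 ± 0.93 SE, adjusted p 0.0523). In limma its log2 ratio was 1.72 without the larger and 2.88 without the smaller cTKO library, 1.83 without the larger WT library and 2.77 without the smaller. Dusp2 (PAC-1), a phosphatase typical of blood cells, had the highest mean level of the members per kilobase in each genotype. In the larger libraries, though, it stood below Mapk14, at 541.0 against 815.0 normalized reads per kilobase in WT and 690.1 against 794.9 in cTKO. Dusp2 had 1316, 2638, 1669 and 2411 reads, which after division by size factors is over 2-fold higher in the smaller library of each genotype, and its log2 fold change of 0.08 did not pass in the authors' deposited table (adjusted p 0.934).

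The fall of Dusp1 and the rise of Dusp5 turned the order of these phosphatases around. Per kilobase, Dusp1 stood at 201.3 normalized reads in WT and Dusp5 at 71.7, and in cTKO Dusp1 stood at 47.6 and Dusp5 at 236.6. Dusp1 fell from 11.6% and 7.56% of all 10 MKP genes in the WT libraries to 1.92% and 1.65% in cTKO. Dusp5 made up 4.23% and 2.65% in WT and 12.9% and 5.82% in cTKO.

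Among the other phosphatases, Dusp10 (MKP-5, which acts on JNK and p38, Entrez 63953, chromosome 1, 184034381 to 184075636) had 1265, 912, 2231 and 1750 reads. The WT libraries were nearly equal after division by size factors, and in the authors' deposited table Dusp10 was 1.92-fold higher in cTKO (log2 ratio 0.94 ± 0.30 SE, adjusted p 0.0191). Limma gave it an adjusted p of 0.0777. None of the 3 cytoplasmic ERK phosphatases passed in the authors' deposited table or in limma, with 1 at an unadjusted p of 0.05. Dusp7, the highest of them, had 762, 1274, 1361 and 1021 reads and an adjusted p of 0.805 in the authors' deposited table. Dusp6 (MKP-3), a common readout of ERK activity, had 927, 819, 934 and 810 reads, and its log2 fold change in the authors' deposited table was 0.06 (95% interval -0.59 to 0.70, adjusted p 0.935). Dusp9 had 0, 1, 20 and 5 reads and did not pass in the authors' deposited table (adjusted p 0.153).

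Dusp23 (a small atypical phosphatase, Entrez 68440, chromosome 1, 172630769 to 172632974) was the third gene that fell, from 114 and 64 reads to 12 and 7. In the authors' deposited table it was 8.97-fold lower (log2 ratio -3.16 ± 0.71 SE, adjusted p 2.24e-04). Dusp3 (VHR, a phosphatase of ERK and JNK) had 10, 4, 59 and 19 reads and did not pass in the authors' deposited table (log2 ratio 2.48 ± 0.98 SE, adjusted p 0.0735). In limma its log2 ratio was 1.77 without the larger and 2.79 without the smaller cTKO library, 2.64 without the larger WT library and 1.92 without the smaller. The antisense gene Gm20659 covers 604 exonic bases of Dusp3 (12.9%). Dusp11, an RNA phosphatase and the highest gene of the remaining DUSPs, had 1499, 1092, 2690 and 1194 reads and an adjusted p of 0.252 in the authors' deposited table. The remaining 6 tested DUSPs outside the MKPs had adjusted p of 0.431 or more. Mapk3, Mapk12, Mapkapk2, Map3k1, Map4k1, Map2k6, Dusp6 and Dusp9 are named after their values were seen.

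**Figure D3:**
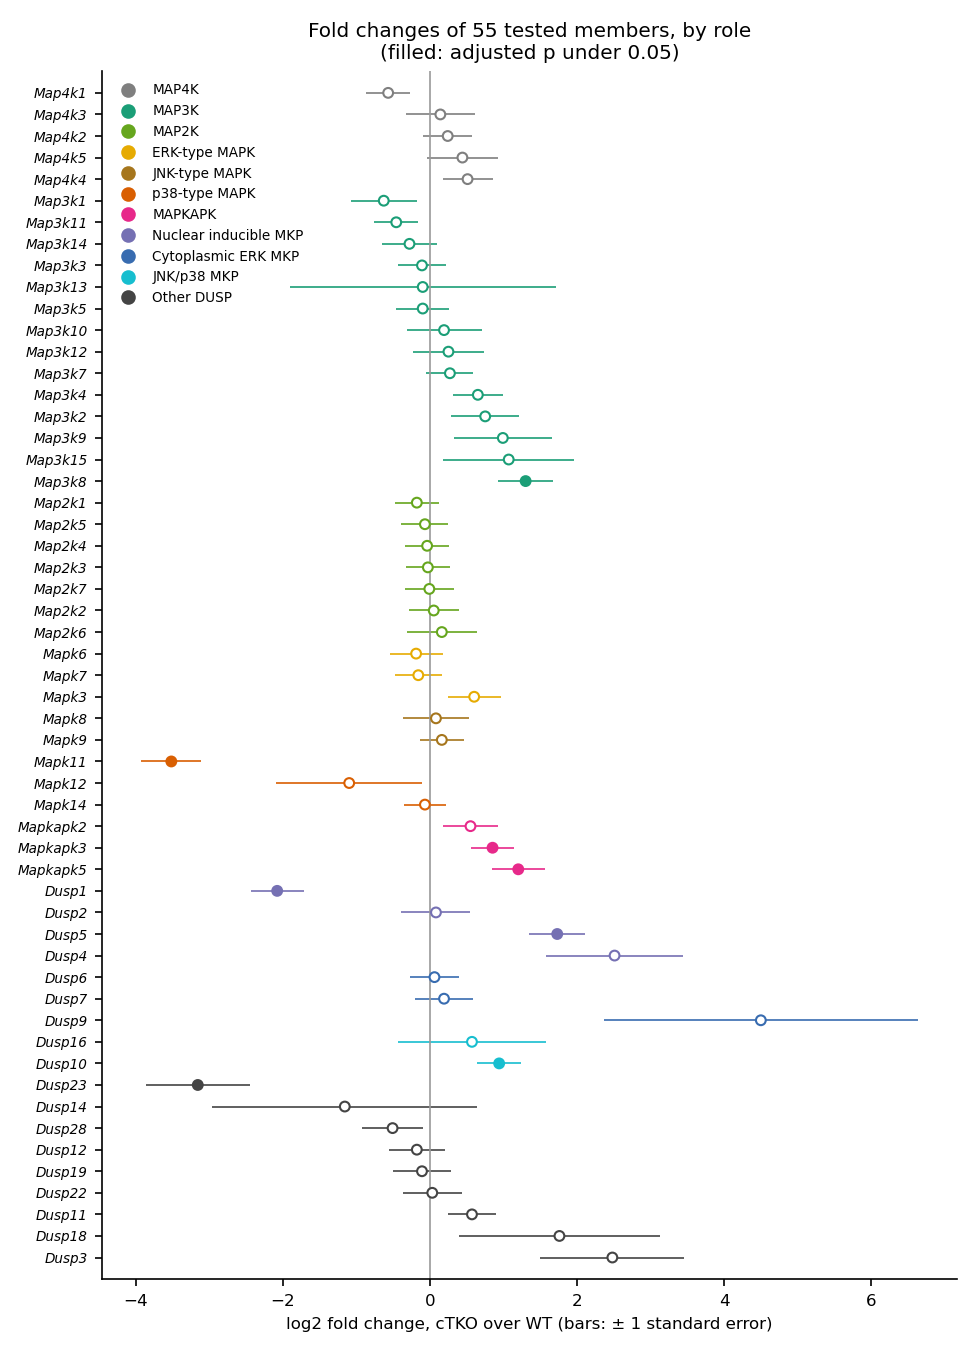
Log2 fold change of cTKO over WT (horizontal axis) of tested members, grouped by role, with bars of 1 standard error and filled points for an adjusted p under 0.05. The MAP2K points sit within 0.2 of 0, and the filled points are Mapk11, Dusp1 and Dusp23 on the left and Map3k8, Mapkapk3, Mapkapk5, Dusp5 and Dusp10 on the right.

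Reads of both cTKO libraries lay above or below those of both WT libraries for 27 of the 56 tested members (48.2%). That was 17 higher and 10 lower, 30.4% and 17.9%, against 32.1% and 27.2% (59.3% in all) of 12217 tested genes with recovered reads. The larger cTKO library was over 2-fold above the smaller one for 8 tested members (14.3%), against 14.8% of all tested genes. Dusp3, Dusp4 and Dusp9 were among them. This library stood apart over the whole table. The smaller cTKO library was over 2-fold above its replicate for 3.83% of tested genes. In WT this held for 5.76% (larger library) and 5.64% (smaller library). Genes with a single read numbered 1165 in the larger cTKO library. They numbered 102, 97 and 156 in the larger WT, smaller WT and smaller cTKO libraries. Fold changes also moved with level over the whole table: in the authors' deposited table the median log2 fold change was 0.86 between 10 and 50 mean normalized reads and -0.21 from 1000 upwards. The members had medians of 1.07 (7 genes) and 0.12 (20 genes) in these classes.

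**Figure D4:**
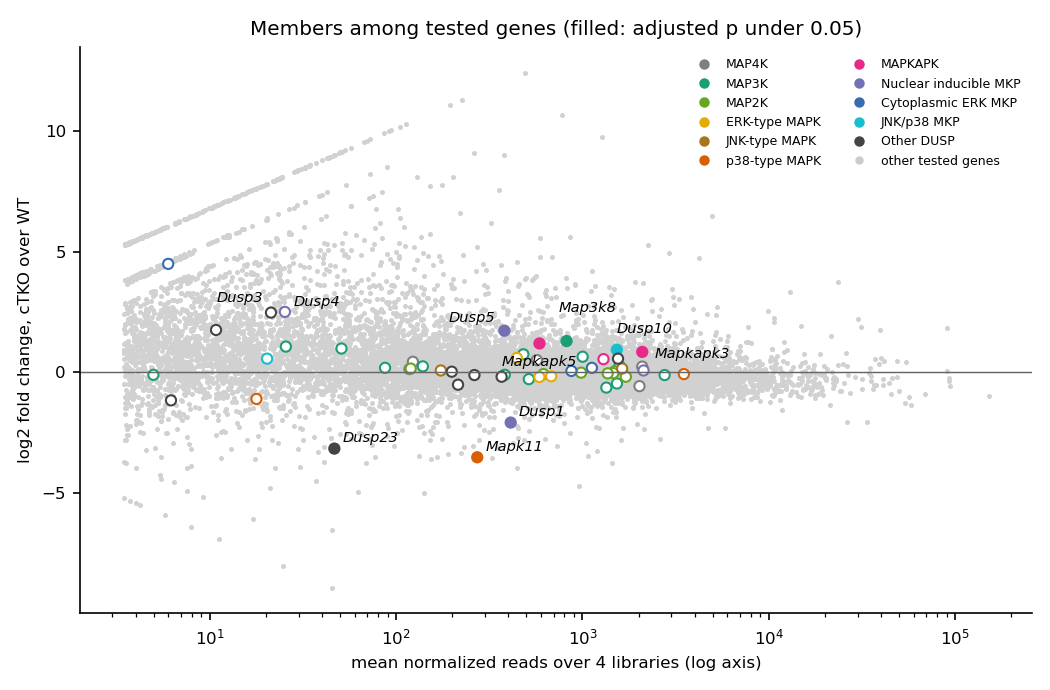
Log2 fold change of cTKO over WT (vertical axis) against the mean normalized reads (horizontal log axis) of tested genes (grey) and of members (coloured by role, filled for an adjusted p under 0.05). Mapk11, Dusp1 and Dusp23 lie at the lower edge of the cloud, and Dusp3 and Dusp4 in the low range where most genes are above 0.

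Genes around the cascade were counted in 6 lists, chosen with earlier results of these data known. Over all tested genes 9.77% were called higher and 3.61% lower in the authors' deposited table. The lists held 111 tested genes, of which 10 were higher and 8 lower. The early response genes, which MAP kinases switch on within minutes to hours of a signal, held most of the lower ones: of 16 tested, 7 were lower and 2 higher, with a median log2 fold change of -1.03. Egr1 had 2334, 1895, 387 and 405 reads and was 5-fold lower (log2 ratio -2.32 ± 0.34 SE, adjusted p 6.61e-10, the authors' deposited table). Egr2, a partner of Egr1 in T cells, had 972, 609, 90 and 99 reads (log2 ratio -2.94, adjusted p 2.12e-12, the authors' deposited table). Nr4a1 (Nur77), a reporter of antigen receptor signals, had 859, 511, 162 and 140 reads (log2 ratio -2.08, adjusted p 4.49e-07, the authors' deposited table). Fos had 110, 341, 20 and 22 reads and Junb 5134, 3858, 2085 and 1774, and both were lower in the authors' deposited table (adjusted p 3.65e-06 and 0.00236). Against these, Ier3 had 50, 123, 764 and 623 reads and was 7.74-fold higher in the authors' deposited table (adjusted p 8.77e-08). Fosl2, an AP-1 subunit, had 76, 49, 374 and 107 reads and was also higher in the authors' deposited table (adjusted p 0.00366).

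Dusp1 thus fell beside Egr1, Egr2, Nr4a1, Fos and Junb, and several of these genes are also known to respond to the handling of cells. A list of 17 handling stress genes, which has Egr1, Fos, Junb, Jun, Ier2 and Atf3 in common with the early genes, had 9 lower and 0 higher among 16 tested in the authors' deposited table. Its summed level over the 15 genes with recovered reads, without Hspa8 and Dnaja1, which were also lower, was 39149.5 and 39893.6 normalized reads in WT and 21469.3 and 26358.8 in cTKO. Hspa1b, a heat shock gene of that list, had 170, 597, 76 and 27 reads. The part of handling in the fall of Dusp1 was not tested.

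**Figure D5:**
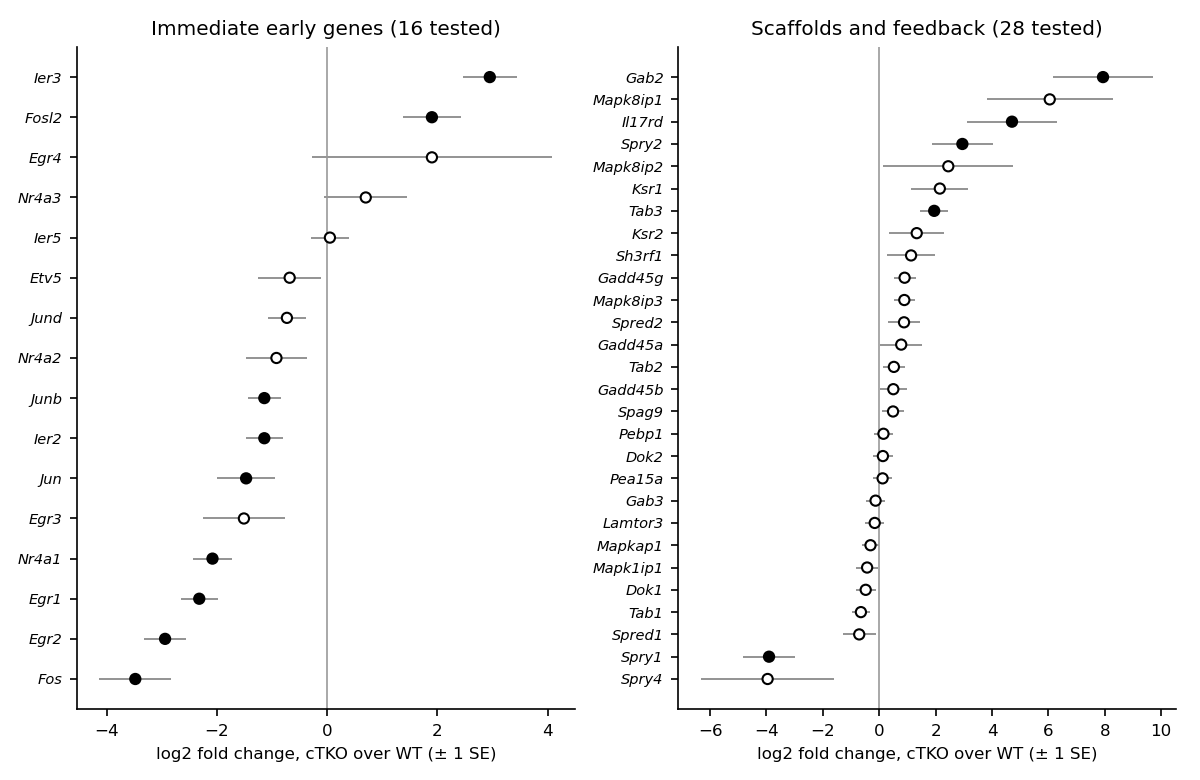
Log2 fold change of cTKO over WT (horizontal axis), with bars of 1 standard error, of the tested early response genes (left) and of the tested scaffold and feedback genes (right), with filled points for an adjusted p under 0.05. Most early genes lie left of 0, with Ier3 and Fosl2 as the called exceptions, while the scaffold and feedback genes spread to both sides.

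Scaffold and feedback genes were called in both directions, 4 higher and 1 lower of 28. Over all tested genes the shares were 9.77% and 3.61%. Spry1, a feedback inhibitor of the Ras to ERK branch, had 88, 37, 6 and 2 reads and was lower in the authors' deposited table (log2 ratio -3.91 ± 0.93 SE, adjusted p 6.09e-04). Its relative Spry2 went the other way, with 15, 1, 111 and 12 reads (log2 ratio 2.95, adjusted p 0.0458, the authors' deposited table). Il17rd of the same list was also higher, with 2, 0, 42 and 10 reads (log2 ratio 4.71, adjusted p 0.0298, the authors' deposited table). Most reads of both were in the larger cTKO library. Gab2, an adaptor of cytokine and growth factor receptors, had 0 reads in both WT libraries and 92 and 9 in cTKO, most of them in the larger library, and was higher in the authors' deposited table (adjusted p 2.47e-04). Tab3, a partner of the MAP3K TAK1, had 108, 99, 697 and 165 reads and was 3.86-fold higher in the authors' deposited table (adjusted p 0.00156). Among kinases and factors activated by MAP kinases, 3 of 23 were higher and 0 lower. Rps6ka6 (RSK4) rose from 4 and 0 reads to 259 and 156 (log2 ratio 6.77 ± 0.89 SE, adjusted p 2.89e-12, the authors' deposited table). Mef2a had 1171, 914, 4266 and 1549 reads and was 2.7-fold higher in the authors' deposited table (adjusted p 0.00101). At the Ras and Raf level 1 of 25 was higher and 0 lower. None of 10 other kinases at the MAP3K level and none of 9 other MAP kinase phosphatases passed in the authors' deposited table or in limma, with 6 and 1 at an unadjusted p of 0.05.

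The recovered reads summed to 11078098 and 7503130 in WT and 10352213 and 6894893 in cTKO, without 755 genes whose reads were not recovered. Hist1h1c and Hist1h1e were read only in the WT libraries, and the direction of the fold changes was read from their sign, so they are no separate check. Of the genes that define CD8 T cells, Cd8a and Cd8b1 had means of 20303.0 and 31813.4 and Cd3d, Cd3e and Cd3g of 12104.8, 12040.9 and 13361.8 normalized reads in the authors' deposited table, none of them called, while Cd4 had 1, 4, 1 and 0 reads. Of 10 CD8 T cell markers 0 were higher and 1 lower (Lat). Of 10 natural killer markers 6 were higher and 1 lower in the authors' deposited table, and their summed level (9 genes, without Nkg7, which was not called and had no recovered reads) was 2907.6 and 2861.3 normalized reads in WT and 13076.1 and 10973.1 in cTKO, while the defining gene Ncr1 had 2, 4, 22 and 1 reads. Of 10 tested myeloid markers 3 were higher and 1 lower. The sum over the 13 with recovered reads was 1277.1 and 762.1 in WT and 2574.1 and 935.4 in cTKO. It mixes genes that moved in opposite directions. Most of it was Cd86 in WT, at 1087.8 and 588.9 normalized reads against 45.6 and 62.1 in cTKO. In cTKO most of it was Itgax, at 2011.8 and 632.3 against 46.1 and 50.8 in WT. The myeloid sum leaves out Ly6c2, the highest of the list, with a mean of 30043.3 normalized reads. Ly6c2 was 4.68-fold higher in cTKO in the authors' deposited table (adjusted p 1.35e-08). Of 6 tested B cell markers 0 were higher and 1 lower (Cd79b), with sums of 1553.8, 1135.1, 979.8 and 282.0. Cd79b gave 1327.4, 879.9, 145.8 and 180.1 of these, and Cd22 171.3, 151.3, 747.9 and 47.2. Of 4 tested CD4 T cell markers 1 was higher (Zbtb7b), with sums of 199.3, 191.7, 270.8 and 161.5. No marker of erythroid cells or platelets passed in the authors' deposited table or in limma, 0 of 5 tested, also at an unadjusted p of 0.05, with sums of 18.1, 105.1, 72.1 and 19.9 and Ppbp at 0 in all libraries. Fewer cells of a type and less RNA per cell cannot be told apart in bulk samples, and the part of other cells in the members' differences was not tested.

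The larger library of each genotype is that of the female and the smaller that of the male, as Uty had 0, 491, 0 and 689 reads, so sex and library size cannot be told apart. Limma on the recovered reads, an alternative test, called Mapk11, Dusp1, Dusp23, Dusp5 and Map3k8 (adjusted p 8.40e-04, 0.0044, 0.00851, 0.0184 and 0.0486) and not Mapkapk3, Mapkapk5 or Dusp10. With sex as a term, where 11.8% of all genes passed against 6.28% without it, limma called these 5, Mapkapk5 and also Dusp3, Dusp4 and Dusp9. Leaving out each library in turn kept the direction of all 8 called members in limma. Over genes with a mean of at least 10, Mapk11 had adjusted p of 2.34e-05 and 6.36e-07 without the larger and the smaller WT library, 0.0709 without the larger and 0.0468 without the smaller cTKO library. Dusp1 had 0.00406, 0.016, 0.089 and 0.0519 in the same order, and Dusp23 0.0111, 0.00202, 0.0936 and 0.0577. Dusp5 passed without the smaller WT library alone (adjusted p 0.0264, otherwise 0.0586 to 0.182), and Map3k8 without the larger WT library alone (0.0198, otherwise 0.117 to 0.392). Mapkapk5, Mapkapk3 and Dusp10 did not pass with any library left out in these fits (0.0685 to 0.485).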

How the data were processed

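The authors used STAR and DESeq2 with builds mm10 and GRCm38.p6, per the submitters' processing notes. The labels name no read counter, strand setting or tool version. For each gene the authors deposited a mean normalized count (a signal: reads divided by size factors, averaged over 4 libraries), a log2 fold change with its standard error, a test score, a p-value and an adjusted p-value, per the file headers. The headers do not state the direction. It was taken as cTKO over WT since the genes taken as deleted (Hist1h1e, Hist1h1d, Hist1h1c), which the labels do not name, have negative values, and the opposite reading would turn every direction. Labels do not say whether samples were prepared in separate batches. The p-values rest on the spread between libraries of the same genotype, in which animal, sex, library size and any batch cannot be told apart. Tables for the other cell types were not analysed here.

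Whole reads per library were recovered from each mean, fold change and standard error: each mean must be the total of 4 read numbers weighted by the worth of a read in each library (size factors 1.214423, 0.866028, 1.207396 and 0.804969). From a mean of 20, solutions were kept where a negative binomial fit returned the deposited fold change (median error 5.67e-10, log2). A lone solution under a mean of 20, or with 1 genotype at 0 reads, was kept from the mean alone. Where a mean under 20 had several solutions, the same fit chose among them. This gave reads for 17398 of 17433 genes tried (99.8%): genes with a mean up to 4000 and listed genes above it. In simulated reads of this comparison, 1154 of 1154 genes with a mean under 20, 598 of 600 from 20 to 100, 600 of 600 from 100 to 1000 and 299 of 300 from 1000 to 4000 were solved, each rightly.

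Calls are the authors' adjusted p under 0.05. Limma 3.58.1 (R 4.3.3, trend, log2 of normalized reads + 1, Benjamini-Hochberg) was the alternative. In simulated reads of 10291 genes it called 32 of 100 genes changed 2-fold and 97 of 100 changed 4-fold, with 6 false calls. The simulation left out genes with low means and gave all libraries the same spread. Its numbers need not hold for the fits of the real libraries, which included such genes. Fold changes in limma are on the log2(normalized reads + 1) scale. Named are members past 0.05 or under 0.1, the highest in each role, and up to 12 pathway genes by p. Spry2 and Il17rd are named beside these, after their values were seen. The result of 1 member is not reported here or drawn in the plots of fold changes, though counts over the members hold it. The members and lists were chosen with earlier results of these data known. Positions are RefSeq's (GRCm38.p6), exons GENCODE M21's. Floors and intervals cover counting error or the deposited standard error only.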

Additional observations from a re-analysis of the deposited data

How the results depend on the processing

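Each call was recomputed with other filters, a re-centring, a stricter threshold and limma on the recovered reads. The 3 lower members were called in every setting with all 4 libraries: with no filter on low means, with a mean of at least 10, re-centred by the median of -0.10 (log2) over genes read 100 times or more on average, at a threshold of 0.01, and in limma with a pseudocount of 1 or 0.5 or with sex as a term. The 5 higher members became 3 at a threshold of 0.01, 2 in limma and 1 in limma with a pseudocount of 0.5, while Dusp4 passed with a mean of at least 10 (adjusted p 0.0483) and re-centred (0.04). Limma over genes with a mean of at least 10 also called Mapkapk5 (0.0459), Dusp4 (0.048) and Dusp3 (0.045). Of pathway genes 10 were higher by the authors and 6 at 0.01, and limma with a pseudocount of 0.5 called 6, of which 5 were among the 10. The 10 members with an adjusted p under 0.1 kept their direction in every setting. Other named members, none of them called by the authors, did not: Mapk14 was at 0.03 re-centred. Without the larger WT library Dusp2 was at -0.58, Dusp7 at -0.30, Map2k6 at -0.15, Dusp6 at -0.10 and Map3k1 at 0.34. Without the smaller WT library Map3k3 was at 0.04, without the larger cTKO library Map4k2 at -0.08, and without the smaller cTKO library Dusp2 at -0.39, Dusp6 at -0.14 and Map3k3 at 0.19. Counts over the whole table were 1268 higher and 468 lower by the authors, and 873 and 220 in limma over 17398 genes.

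Without the smaller cTKO library, limma over all genes passed members with almost no reads, such as Map3k21 and Dusp13 with 1 read each. The numbers called over all genes without 1 library at a time are therefore not read as results. In these fits 1 genotype is a lone sample assumed to vary like the other, and without either WT library no gene of the 17398 passed (0 higher and 0 lower), against 5 and 8 members at an unadjusted p of 0.05. Added after seeing the data, the same fits over genes with a mean of at least 10 called 0 to 3 members higher and 0 to 3 lower, and 1 to 8 pathway genes higher and 0 to 7 lower. The log2 ratio then ranged from -3.69 to -3.27 for Mapk11, -2.21 to -1.94 for Dusp1, 0.92 to 1.80 for Map3k8 and 1.36 to 2.01 for Dusp5. The labels give no replicate number that the genotypes share, and the one pairing at hand is by sex. Limma with sex as a term, which makes 2 pairs, called 6 members higher and 3 lower. It added Dusp3, Dusp4 and Dusp9 (adjusted p 0.00804, 0.00522 and 0.00994) and left out Mapkapk3 and Dusp10. Over the whole table it called 1619 genes higher and 430 lower, 11.8% against 6.28% in limma without the term. With 4 libraries this fit has little left to estimate the spread from, so the added members are no firmer for it. Depth limits the 11 members with a mean of at most 1.96 and the 3 at 0, whose differences were not detectable here.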

Other observations

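The genes beside the called members were looked at after the members' values had been seen, taking the 4 nearest tested protein-coding genes of each, and 13.4% of all tested genes were called in the authors' deposited table. None of the 4 neighbours of Mapk11, of Dusp1, of Dusp23 or of Dusp5 was called in the authors' deposited table. Hdac10, a deacetylase gene 13786 bases from Mapk11, had 1193, 655, 725 and 477 reads, in the order larger WT, smaller WT, larger cTKO, smaller cTKO, and an adjusted p of 0.285 in the authors' deposited table. Ergic1, which overlaps the end of Dusp1 by 11 exonic bases on the other strand, had 1434, 729, 783 and 538 reads (adjusted p 0.216, the authors' deposited table). Beside Mapkapk3, 2 of 4 were higher. Cish, a cytokine-induced inhibitor of STAT5 signals 6149 bases away, had 149, 130, 2283 and 1188 reads (log2 ratio 3.63, adjusted p 1.80e-24, the authors' deposited table), and Hemk1 had 124, 65, 284 and 199 (adjusted p 0.01, the authors' deposited table). Beside Mapkapk5, 2 of 4 were higher as well: Adam1a, which shares exons with it, and Aldh2, with 13, 13, 80 and 46 reads (log2 ratio 2.27, adjusted p 0.0212, the authors' deposited table). Beside Map3k8, 1 of 4 was higher, Bambi, 814923 bases away (log2 ratio 3.27, adjusted p 3.19e-07, the authors' deposited table). Beside Dusp10, 1 of 4 went the other way: Taf1a, 603104 bases away, was lower (log2 ratio -1.48, adjusted p 0.00151, the authors' deposited table).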
